A study of Mus musculus with 6 samples.

Results

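The genes of the oocyte and of the zona pellucida, its egg coat, were examined as a measure of the follicles that remained in ovaries carrying tumors. The set comprises 10 listed oocyte-specific genes, *Zp1*, *Zp2*, *Zp3*, *Gdf9*, *Bmp15*, *Figla*, *Nobox*, *Nlrp5*, *Ooep* and *Padi6*, of which 9 are present among the 20076 genes of the deposited table. *Figla* is not in the table. Bulk polyA RNA was sequenced from 6 primary tumors, 3 grown in wild-type (WT) C57BL/6 mice and 3 in *Tgm2* knockout mice, all aged between 6 and 10 weeks when used. Mice of both genotypes had the mouse ovarian cancer line ID8 *Trp53*-/- *Brca1*-/- injected under the bursa of both ovaries, and the tumors were collected 6 weeks later. *Tgm2*, which encodes tissue transglutaminase, is deleted in the host and not in the injected cells, and its transcripts measured 14978, 12155 and 13180 normalized counts in WT hosts against 5853, 6071 and 8157 in knockout hosts. Where 3 values are given for a genotype they are in the order of tumors 1, 2 and 3, WT hosts first. The labels number the replicates but do not say which tumors came from which mouse or side, and p-values measure the spread between these 6 tumors.

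The oocyte grows inside a follicle, where granulosa cells surround it and, outside them, theca cells make androgens. During growth the oocyte secretes the glycoproteins ZP1, ZP2 and ZP3, which assemble into the zona pellucida and serve in sperm binding and in the block to further sperm. It also secretes GDF9 and BMP15, members of the TGF-β family that act on the granulosa cells. The transcription factors FIGLA and NOBOX are needed for the formation and early growth of follicles, and NLRP5, OOEP and PADI6 are stored in the egg as parts of the subcortical maternal complex and the cytoplasmic lattices, which the embryo uses for its first divisions. These genes are close to silent outside the germ line, and their transcripts in ovary are commonly read as marks of oocytes. In bulk RNA, fewer oocytes, less RNA per oocyte and a smaller part of ovary in the sample cannot be told apart.

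*Tgm2* knockout tumor 1 stood apart from the other 5 tumors in all 9 genes, and the genotype comparisons that rest on it are given with and without it. The 9 genes summed to 2774 normalized counts in this tumor, against 31.5 and 59.6 in *Tgm2* knockout tumors 2 and 3 and 192, 49.8 and 106 in WT tumors 1 to 3. It held 86.3% of the sum over all 6 tumors. Normalized counts are estimated read counts scaled for sequencing depth, and 1 read was worth between 0.945 and 1.08 normalized counts, so a value near 3 rests on about 3 reads. The depth of the tumors was alike, at an estimated 33.4M to 36.8M reads. At a limit of 3 normalized counts, all 9 genes were detected in *Tgm2* knockout tumor 1, 8 in WT tumor 1, 7 in WT tumor 3, 4 in WT tumor 2, 3 in *Tgm2* knockout tumor 3 and 2 in *Tgm2* knockout tumor 2.

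**Figure D1:**
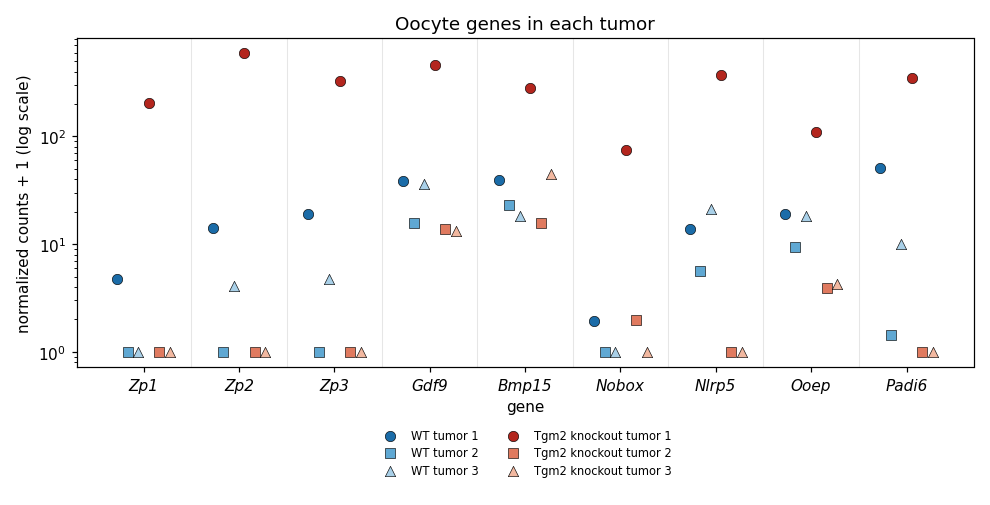
Normalized counts plus 1 of each of the 9 oocyte genes (horizontal axis) in each tumor (points, WT in blue and *Tgm2* knockout in red) on a log axis. *Tgm2* knockout tumor 1 is the highest point for every gene, from 73.0 normalized counts for *Nobox* to 596 for *Zp2*, while the other tumors reach at most 49.5.

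The genes are spread over several chromosomes. The sequence before the start is shown for 1 gene of each role that has a promoter entry in the RefSeq table of GRCm38.p6. Whether these sequences bear on the values in the tumors was not tested. *Zp3* represents the egg coat, *Bmp15* the secreted factors, *Nobox* the transcription factors and *Padi6* the maternal complex. Each line holds the 250 bases before the start, on the strand of the gene, with capitals marking matches to CANNTG, the E-box that basic helix-loop-helix factors such as FIGLA bind. The windows are chr5:135979855-135980104 on the plus strand for *Zp3*, chrX:6320725-6320974 on the minus strand for *Bmp15*, chr6:43309555-43309804 on the minus strand for *Nobox* and chr4:140742644-140742893 on the minus strand for *Padi6*.
Zp3: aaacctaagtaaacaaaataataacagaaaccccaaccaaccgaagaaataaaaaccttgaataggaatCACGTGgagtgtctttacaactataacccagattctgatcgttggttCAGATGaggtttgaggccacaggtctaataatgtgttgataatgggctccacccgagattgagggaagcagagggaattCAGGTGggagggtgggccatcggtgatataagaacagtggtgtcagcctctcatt
Bmp15: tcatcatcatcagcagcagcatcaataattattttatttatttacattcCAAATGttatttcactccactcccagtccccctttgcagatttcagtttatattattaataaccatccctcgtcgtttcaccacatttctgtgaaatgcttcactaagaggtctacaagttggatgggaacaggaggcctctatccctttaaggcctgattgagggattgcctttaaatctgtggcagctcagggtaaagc
Nobox: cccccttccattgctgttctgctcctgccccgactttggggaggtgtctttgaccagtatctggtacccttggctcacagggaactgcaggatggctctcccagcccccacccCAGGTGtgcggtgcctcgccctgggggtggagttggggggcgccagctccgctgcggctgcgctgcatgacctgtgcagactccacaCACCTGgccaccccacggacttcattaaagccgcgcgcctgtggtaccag
Padi6: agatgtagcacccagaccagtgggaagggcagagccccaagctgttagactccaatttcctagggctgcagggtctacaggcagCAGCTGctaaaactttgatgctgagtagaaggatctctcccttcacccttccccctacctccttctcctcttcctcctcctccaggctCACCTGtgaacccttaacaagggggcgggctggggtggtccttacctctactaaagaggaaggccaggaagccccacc
The *Zp3* window held CACGTG at 181 bases, CAGATG at 134 bases and CAGGTG at 55 bases before the start. The *Bmp15* window held a single match, CAAATG at 201 bases. The *Nobox* window held CAGGTG at 137 bases and CACCTG at 50 bases, and that of *Padi6* held CAGCTG at 166 bases and CACCTG at 78 bases. RefSeq windows were found for 7 of the 10 listed genes, 8 windows in all since *Nlrp5* has more than 1 start, and all 8 held CANNTG on either strand, a sequence present in 66.2% of the 32851 promoter windows of the same length. TAATTG, an element bound by NOBOX, was found on either strand in 1 of the 8 windows, that of *Ooep*, at 195 bases before its start, against 7.17% of all windows. *Zp1*, *Zp2* and *Gdf9* had no entry.

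Transcripts of the zona pellucida were found in 3 of the 6 tumors. *Zp1* encodes the protein that crosslinks the filaments of the coat and spans bases 10914287 to 10920632 of chromosome 19 (GRCm38, GENCODE M21), minus strand. In normalized counts it measured 3.79, 0 and 0 in WT hosts against 201, 0 and 0 in knockout hosts. *Zp2*, which encodes the zona protein that sperm recognize and that is cleaved after fertilization, spans bases 120126772 to 120145291 of chromosome 7, minus strand. It measured 13.3, 0 and 3.05 in WT hosts against 596, 0 and 0 in knockout hosts. *Zp3*, which encodes the filament partner of ZP2, lies on chromosome 5 from 135980099 to 135988624 on the plus strand. It stood at 17.9, 0 and 3.74 normalized counts in WT hosts against 324, 0 and 0 in knockout hosts. The genes therefore had the same order of tumors, with *Tgm2* knockout tumor 1 first, WT tumor 1 next, WT tumor 3 at about 3 reads for *Zp2*, about 4 for *Zp3* and at 0 for *Zp1*, and the others at 0.

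Because 0 counts allow up to 3 reads, which is at most 3.23 normalized counts in any tumor, *Tgm2* knockout tumor 1 was at least 62.3-fold higher than the tumors at 0 for *Zp1*, at least 184-fold for *Zp2* and at least 100.2-fold for *Zp3*. These bounds cover counting error only. Over WT tumor 1 it was 53.1-fold higher for *Zp1*, 44.9-fold for *Zp2* and 18.1-fold for *Zp3*. By genotype, *Zp2* averaged 5.44 ± 6.95 normalized counts in WT tumors (SD, n = 3) and 199 ± 344 in *Tgm2* knockout tumors (SD, n = 3), so that the spread within the knockout group exceeded its mean.

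The secreted factors were detected in every tumor. *Gdf9*, on chromosome 11 from 53431023 to 53437904 on the plus strand, stood at 37.3, 14.6 and 35.4 normalized counts in WT hosts against 464, 12.9 and 12.3 in knockout hosts. *Bmp15*, on chromosome X from 6314107 to 6320721 on the minus strand, stood at 38.8, 21.9 and 17.2 in WT hosts against 282, 14.7 and 44.1 in knockout hosts. *Tgm2* knockout tumor 1 was 12.4-fold above the next tumor for *Gdf9* and 6.40-fold for *Bmp15*, smaller steps than for the zona genes, and for *Bmp15* the next tumor was *Tgm2* knockout tumor 3. *Bmp15* has a single annotated transcript, for which the values step in whole reads, and they correspond to 41, 21 and 17 reads in WT hosts against 299, 15 and 41 in knockout hosts. Reads of both factors were thus present in *Tgm2* knockout tumors 2 and 3 and in WT tumor 2, where all 3 zona genes were at 0.

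*Nobox*, on chromosome 6 from 43303674 to 43309554 on the minus strand, had the lowest level per kilobase of the 9 genes in *Tgm2* knockout tumor 1. It reached 73.0 normalized counts in *Tgm2* knockout tumor 1, stood at 0.947 in WT tumor 1 and 0.982 in *Tgm2* knockout tumor 2, which are about 1 read each, and was 0 in the other 3 tumors. *Tgm2* knockout tumor 1 was at least 22.6-fold above the tumors at 0.

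The genes of the maternal complex differed in how widely they were found. *Nlrp5*, on chromosome 7 from 23385889 to 23441922 on the plus strand, where the annotation also places the small gene *Gm25196*, stood at 12.8, 4.58 and 20.4 normalized counts in WT hosts against 373, 0 and 0 in knockout hosts. *Padi6*, which encodes a member of the peptidylarginine deiminase family required for the egg's cytoplasmic lattices, lies on chromosome 4 from 140727355 to 140742643 on the minus strand. It stood at 49.5, 0.447 and 9.09 in WT hosts against 351, 0 and 0 in knockout hosts. *Ooep*, on chromosome 9 from 78376109 to 78378725 on the minus strand, had reads in all tumors, at 18.0, 8.33 and 17.2 normalized counts in WT hosts against 109, 2.94 and 3.23 in knockout hosts. *Ooep* also has a single transcript, and its values correspond to 19, 8 and 17 reads in WT hosts against 115, 3 and 3 in knockout hosts. For these genes *Tgm2* knockout tumor 1 was the highest, and *Tgm2* knockout tumors 2 and 3 lay below the WT tumors, except that *Padi6* in WT tumor 2, at under 1 read, cannot be told from the tumors at 0. The highest tumor was 18.3-fold above the next for *Nlrp5*, 7.10-fold for *Padi6* and 6.06-fold for *Ooep*, and over the tumors at 0 it was at least 116-fold higher for *Nlrp5* and at least 109-fold for *Padi6*.

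The make-up of the oocyte signal was compared between genes per kilobase of the longest annotated transcript. In *Tgm2* knockout tumor 1, *Gdf9* (259 normalized counts per kilobase), *Zp2* (249) and *Zp3* (245) led, followed by *Padi6* (151), *Nlrp5* (106), *Zp1* (103), *Bmp15* (92.3), *Ooep* (51.0) and *Nobox* (38.6). *Zp2* and *Zp3* made up 19.3% and 18.9% of the summed level per kilobase there, just under *Gdf9*. In WT tumor 1 the largest shares were those of *Padi6* (24.0%), *Gdf9* (23.6%) and *Zp3* (15.3%), and *Zp2* had 6.28%. In WT tumor 3, *Gdf9* alone made up 41.8% and *Zp2* 2.69%. The mix of oocyte transcripts therefore differed between the tumors in which most of the genes were detected, although the values of WT tumor 3 rest on few reads.

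**Figure D2:**
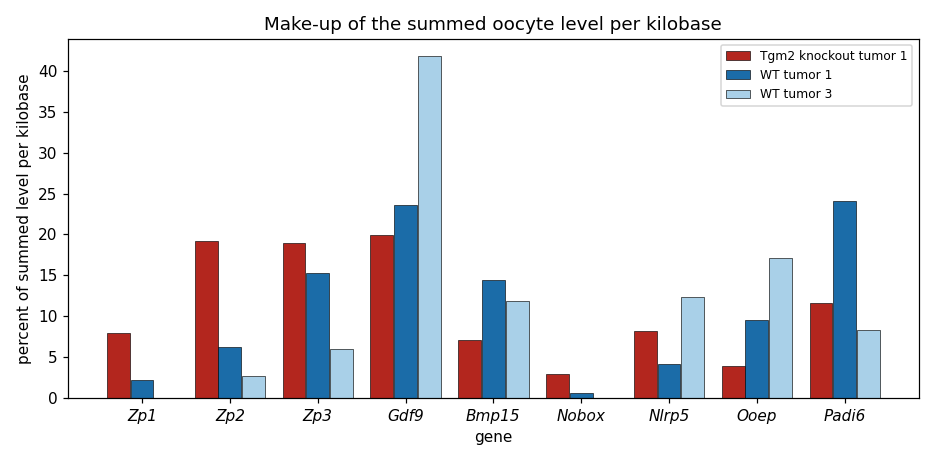
Share of the summed level per kilobase (vertical axis, percent) taken by each oocyte gene (horizontal axis) in the 3 tumors where at least 7 of the 9 genes were detected (bars). *Zp2* takes 19.3% in *Tgm2* knockout tumor 1 and 6.28% in WT tumor 1, while *Padi6* takes 11.6% and 24.0%.

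The genotypes were then compared across the 19667 genes that reached a value of 1 in 3 or more tumors. Limma was fitted to log2(value + 1) with Benjamini-Hochberg adjustment, and a gene passed when its adjusted p was under 0.05 and its log2 fold change beyond 1 in either direction. Across all genes 20 were higher and 0 lower in *Tgm2* knockout tumors, which is 0.102% of those tested, with 491 higher and 305 lower when the p-value of 0.05 was left unadjusted and the fold change limit kept. This looser pair of limits is called the unadjusted limits here. Of the 9 oocyte genes, 7 could be tested, since *Zp1* and *Nobox* did not reach a value of 1 in 3 tumors, and 0 of the 7 passed in either direction. At the unadjusted limits, 0 of the 7 were higher, against 2.5% of all genes, and 0 were lower.

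The fitted differences were close to or below their standard errors and did not share a direction. The log2 fold changes, *Tgm2* knockout minus WT, were positive for *Bmp15* (1.20, standard error 1.01, adjusted p = 0.901), *Zp2* (1.12, standard error 2.35, adjusted p = 0.955), *Gdf9* (0.66, standard error 1.31, adjusted p = 0.953) and *Zp3* (0.62, standard error 2.20, adjusted p = 0.976). They were negative for *Nlrp5* (-0.71, standard error 2.10, adjusted p = 0.969), *Padi6* (-0.36, standard error 2.29, adjusted p = 0.986) and *Ooep* (-0.27, standard error 1.27, adjusted p = 0.982). The 95% interval of *Zp2*, from -4.25 to 6.49, shows how little 3 tumors per group fix these values. The median of the 7 log2 fold changes was 0.62, beside -0.03 over all genes tested. The groups overlapped for all 9 genes, while 10.5% of the genes tested had groups that did not overlap. In a two-sided exact permutation test of the mean log2(value + 1), for which 0.1 is the smallest p-value that 3 tumors against 3 allow, p was 0.4 for *Nobox*, 0.6 for *Bmp15*, 0.8 for *Padi6* and 1 for each of the other 6 genes.

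Without *Tgm2* knockout tumor 1 the direction of the summed level turned. The log2 ratio of the group means of the summed level was 3.04 with all tumors and -1.35 without it. The sums of the remaining tumors overlapped, at 59.6 in *Tgm2* knockout tumor 3 against 49.8 in WT tumor 2. With the zona genes at 0 in *Tgm2* knockout tumors 2 and 3, most of their sums came from *Gdf9* and *Bmp15*. Among the 5 remaining tumors 4 of the genes could be tested, and the log2 fold changes became -1.86 for *Ooep* (standard error 0.79), -1.04 for *Gdf9* (standard error 0.75) and 0.06 for *Bmp15* (standard error 0.78). *Ooep* (adjusted p = 0.717 from limma) was lower at the unadjusted limits, as were 3.13% of all genes tested in these tumors, and did not pass adjustment. *Nlrp5* was fitted at -3.56 (standard error 0.91, adjusted p = 0.453 from limma), but it entered this comparison only through the WT tumors, the remaining knockout tumors being at 0, so that its direction was fixed by the filter and the fit is no evidence of a difference. Its size also depends on the value added before the log. Adjusted p-values ranged from 0.453 to 0.9999 for *Nlrp5* and from 0.717 to 0.9999 for *Ooep* over all alternative settings. Leaving out *Tgm2* knockout tumor 2 or 3 instead gave 0.71 for *Nlrp5*.

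**Figure D3:**
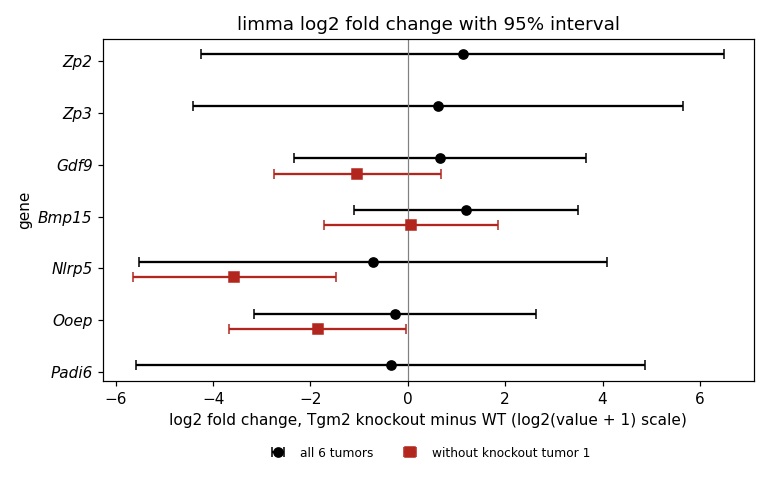
Log2 fold change, *Tgm2* knockout minus WT, on the log2(value + 1) scale (horizontal axis) of the oocyte genes tested (vertical axis), with all 6 tumors (black circles) and without *Tgm2* knockout tumor 1 (red squares). Bars are 95% intervals from limma, and without that tumor *Gdf9* moves from 0.66 to -1.04, while *Nlrp5* then enters only through the WT tumors.

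How far *Tgm2* knockout tumor 1 departs from the other tumors was counted over the whole table, a count chosen after its values were seen. Of the 18496 genes with a highest value of at least 10, 155 were at least 8-fold above every other tumor in *Tgm2* knockout tumor 1, which is 0.838%, and these include 6 of the 9 oocyte genes. *Bmp15*, *Ooep* and *Padi6* fell short, with *Padi6* the nearest at 7.10-fold over WT tumor 1. The same count was 131 genes in WT tumor 3, 36 in *Tgm2* knockout tumor 2, 16 in WT tumor 1, 15 in *Tgm2* knockout tumor 3 and 8 in WT tumor 2, none of them an oocyte gene of the set. Over the whole table, 13.5% of genes were highest in *Tgm2* knockout tumor 1.

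Further oocyte genes were examined for the same order of tumors. Of 41 further genes listed for the oocyte, 38 were in the table and 31 of these were highest in *Tgm2* knockout tumor 1, 15 of them by at least 8-fold. *Nlrp14*, a maternal gene of the same family as *Nlrp5*, stood at 19.2, 0 and 3.17 normalized counts in WT hosts against 460, 0 and 0 in knockout hosts. *Zar1*, which encodes an RNA-binding protein of the egg, stood at 6.14, 0 and 6.63 in WT hosts against 147, 0 and 0 in knockout hosts. *Tcl1*, a maternal gene needed for early cleavage, was 0 in every tumor except *Tgm2* knockout tumor 1, where it reached 103 normalized counts, at least 31.7-fold above the others. The order of tumors for *Nlrp14* was that of *Zp2* and *Zp3*, and 12 of the 38 genes were at 0 in WT tumor 2 and in *Tgm2* knockout tumors 2 and 3.

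More genes of the egg's known machinery were highest in the same tumor. *Astl*, whose product cleaves ZP2, stood at 127 normalized counts in *Tgm2* knockout tumor 1 and at most 6.63 elsewhere, *H1f8*, the linker histone of the oocyte, at 140 and at most 12.95, and *Bcl2l10*, of the BCL2 family, at 119 and at most 11.8. *Dppa3*, a maternal factor that protects DNA methylation in the zygote, reached 130 there. It stood at 26.3 and 38.2 in *Tgm2* knockout tumors 2 and 3 and at 14.3 to 23.1 in WT hosts. *Bcl2l10* too was lower in every WT tumor, at most 4.16, than in every knockout tumor, at least 6.49, a step of a few reads. *Npm2*, a histone chaperone of the egg, reached 105 in *Tgm2* knockout tumor 1 and 5.24 to 55.2 elsewhere. *Oas1d* reached 121 in that tumor and at most 9.46 elsewhere. *Khdc3*, a further part of the maternal complex, stood at 68.9, *Oog1* at 60.3, *Kpna7*, an importin, at 54.6, *Nlrp4f* at 51.8 and *Ybx2*, which stores maternal mRNA, at 48.0, with at most 18.3 in any other tumor for these genes. *Tle6*, whose product joins the same maternal complex, did not follow them, and its highest value was 365 in WT tumor 3, against 330 in *Tgm2* knockout tumor 1.

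The most abundant genes of the further list differed less between *Tgm2* knockout tumor 1 and the others. *Sohlh1*, a germ-line transcription factor, was highest in *Tgm2* knockout tumor 3 at 1388 normalized counts and ranged from 569 to 966 in the other tumors. *Zfp57*, which maintains imprints, was highest in WT tumor 3 at 700.2, and *Cpeb1*, a regulator of stored mRNA, at 434 in the same tumor. *Gja4*, the gap junction protein that couples the oocyte to its granulosa cells and is also known from blood vessels, lay between 297 and 346 in all 6 tumors. *Taf4b*, a TFIID subunit of germ and granulosa cells, reached 413 in *Tgm2* knockout tumor 1 and 133 to 214 elsewhere. The summed level of the further list, led by these genes, was 2316, 1681 and 3098 in WT hosts against 5087, 2044 and 2332 in knockout hosts.

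Of the 29 further oocyte genes tested between genotypes, 0 passed after adjustment by limma. Their median log2 fold change was 0.30 with all tumors, and -0.50 without *Tgm2* knockout tumor 1 among the 23 that could then be tested, of which *Khdc3* and *Patl2* entered only through the WT tumors. At the unadjusted limits 1 of the 29 was higher and 1 lower, beside 491 and 305 of the 19667 genes tested. The higher gene was *Oosp1*, which encodes an oocyte-secreted protein (log2 fold change 4.28, standard error 0.93, adjusted p = 0.403). It stood at 8.62, 0 and 7.49 normalized counts in WT hosts against 102, 84.6 and 67.3 in knockout hosts, so that its groups did not overlap and, unlike the 9 genes of the set, it was high in *Tgm2* knockout tumors 2 and 3 too. The groups did not overlap for 5 of the 38 genes, all of them among the 29 tested, beside 10.5% of all genes tested. *Oosp1*, *Izumo1r*, *Dppa3* and *Bcl2l10* had higher and *Sohlh2* had lower values in knockout hosts. The step between groups was only a few reads for *Bcl2l10*, at most 4.16 normalized counts in WT hosts against at least 6.49. The same held for *Sohlh2*, at least 7.30 in WT hosts against at most 5.69. *Izumo1r*, the sperm receptor on the egg membrane, stood at 51.1, 22.5 and 28.3 in WT hosts against 66.8, 77.8 and 68.0 in knockout hosts, and it did not pass. It too was as high in *Tgm2* knockout tumors 2 and 3, where the zona genes were at 0, as in *Tgm2* knockout tumor 1. Which cells its reads came from was not tested. The lower gene was *Sohlh2*, the partner of SOHLH1 (log2 fold change -2.98, standard error 0.99, adjusted p = 0.736), with 51.1, 7.30 and 21.3 normalized counts in WT hosts against 5.69, 1.96 and 0 in knockout hosts. Without *Tgm2* knockout tumor 1, 1 of the 23 was higher at the unadjusted limits and 3 were lower, *Sohlh2*, *Npm2* and *Zfp57*. Over all 19250 genes then tested, 475 were higher and 602 lower at these limits.

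**Figure D4:**
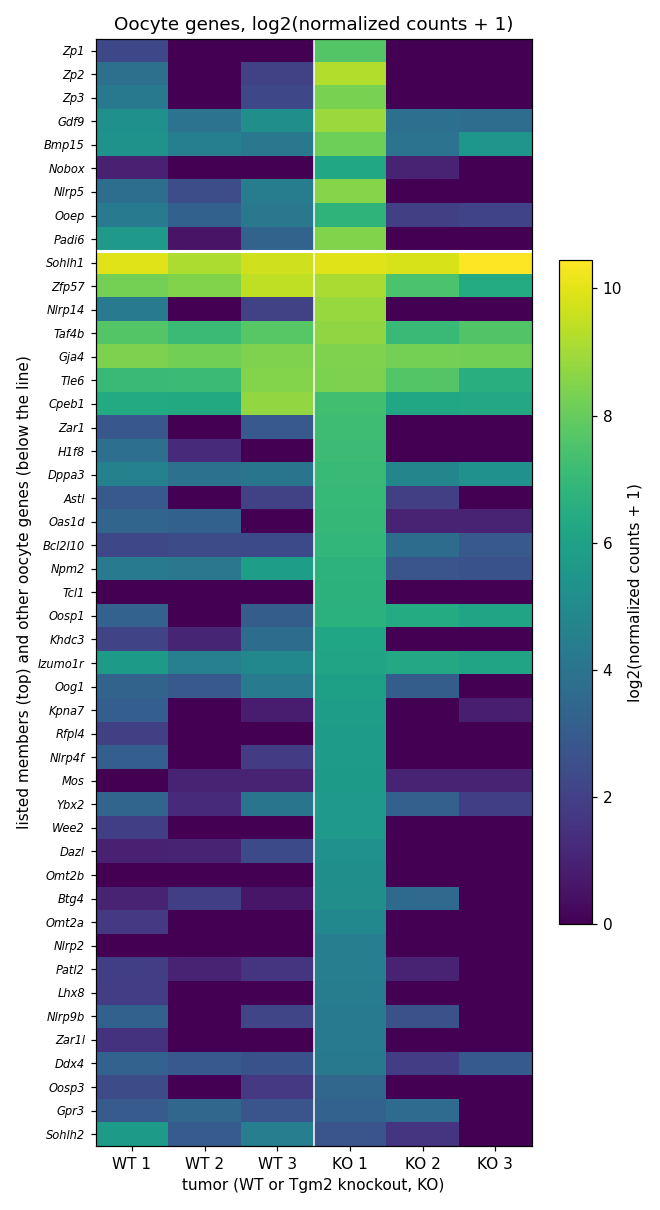
Log2(normalized counts + 1), from dark (0) to yellow, of the 9 oocyte genes (above the white line) and 38 further oocyte genes (below it, rows) in each tumor (columns, KO for *Tgm2* knockout). The column of *Tgm2* knockout tumor 1 is the brightest for all 9 genes and for 31 of the 38, while *Sohlh1*, *Zfp57* and *Gja4* are bright in every column.

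The cells that surround the oocyte were examined next. Of 16 granulosa genes, 13 were highest in *Tgm2* knockout tumor 1, 6 of them by at least 8-fold, beside 13.5% of all genes that were highest there. *Amh*, the hormone of granulosa cells of growing follicles, stood at 302, 136 and 129 normalized counts in WT hosts against 2766, 155 and 216 in knockout hosts. *Fshr*, the receptor for follicle-stimulating hormone, stood at 11.4, 0 and 0 in WT hosts against 162, 0 and 0 in knockout hosts, which is the order of tumors found for *Zp1*. *Foxl2*, the transcription factor of granulosa identity, stood at 219, 78.2 and 84.1 in WT hosts against 1282, 51.0 and 23.7 in knockout hosts. *Cyp19a1*, the aromatase of granulosa cells, reached 82.1 in *Tgm2* knockout tumor 1 and at most 7.15 elsewhere. *Inha*, which encodes the inhibin alpha chain, was highest in the same tumor at 10367 but lay between 2585 and 5495 in the others.

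*Amhr2*, the receptor for AMH, and *Kitl*, the ligand for the KIT receptor of oocytes, were abundant in all tumors, at 14265 to 26497 and at 4726 to 8194 normalized counts, and *Tgm2* knockout tumor 1 was the lowest for *Amhr2*. Between genotypes 0 of the 15 granulosa genes tested passed limma after adjustment, with a median log2 fold change of 0.83, and *Fst* and *Hsd17b1* were higher at the unadjusted limits (adjusted p = 0.805 and 0.776), beside 2.5% of all genes. Without *Tgm2* knockout tumor 1, 0 granulosa genes were higher at these limits and the median was 0.07. *Foxl2* was lower (log2 fold change -1.67, adjusted p = 0.698 from limma), as were 3.13% of all genes tested in these tumors. The log2 fold changes were then 0.88 for *Fst* and 1.19 for *Hsd17b1*, against 1.13 and 1.73 with all tumors.

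Several genes of steroid-making cells were high in WT tumor 1 as well as in *Tgm2* knockout tumor 1. *Cyp11a1*, which starts steroid synthesis, stood at 8648, 208 and 158 normalized counts in WT hosts against 22480, 209 and 178 in knockout hosts. *Hsd3b1*, which acts in the steps to progesterone, stood at 5526, 1.07 and 68.1 in WT hosts against 25704, 13.2 and 33.4 in knockout hosts. *Cyp17a1*, the theca enzyme of androgen synthesis, reached 1157 in *Tgm2* knockout tumor 1 and 99.5 to 204 elsewhere, and *Lhcgr*, the receptor for luteinizing hormone, 1176 there and 13.9 to 151 elsewhere. *Akr1c18*, which breaks down progesterone in the regressing corpus luteum, went the other way between these tumors, at 1948 in WT tumor 1 and 144 in *Tgm2* knockout tumor 1. *Star*, the carrier of cholesterol into mitochondria, lay between 4223 and 8970 in all tumors. Among the theca and luteal genes, 6 of 12 were highest in *Tgm2* knockout tumor 1, beside 13.5% of all genes. After adjustment 0 of 12 passed limma, with a median log2 fold change of 0.56 with all tumors and -0.49 without *Tgm2* knockout tumor 1.

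**Figure D5:**
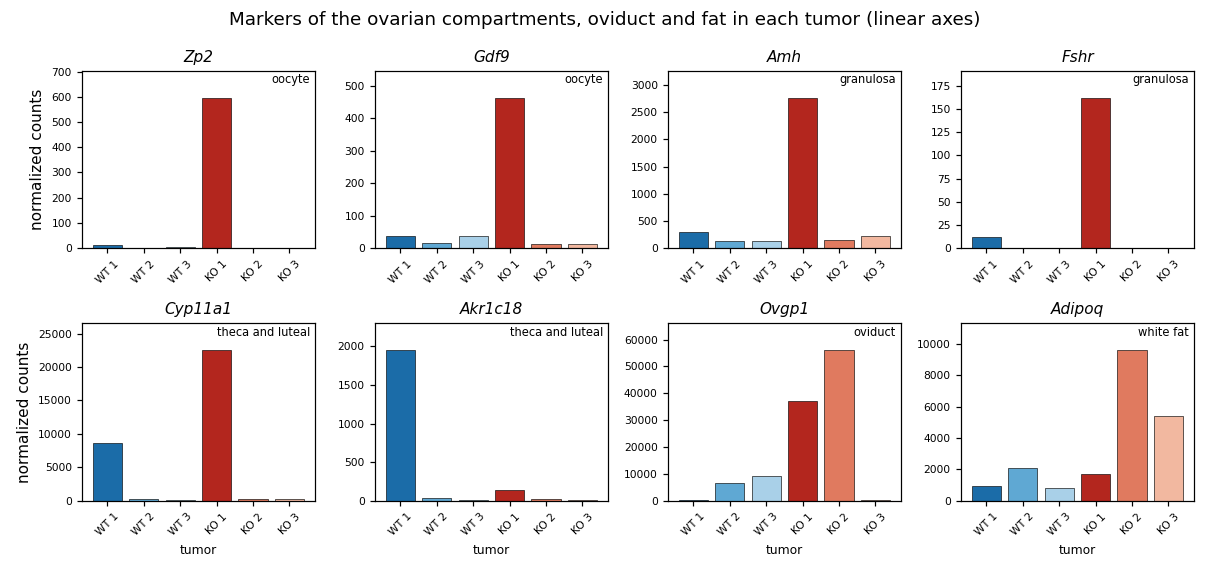
Normalized counts (vertical axes, linear and starting at 0) of marker genes of the oocyte, granulosa cells, theca and luteal cells, oviduct and white fat in each tumor (bars, KO for *Tgm2* knockout). *Zp2*, *Gdf9*, *Amh* and *Fshr* peak in *Tgm2* knockout tumor 1, *Cyp11a1* is also high in WT tumor 1, *Ovgp1* is highest in *Tgm2* knockout tumor 2 and *Adipoq* is highest in *Tgm2* knockout tumors 2 and 3.

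Markers of other tissue beside the ovary had a different order of tumors. *Ovgp1*, the oviduct glycoprotein, stood at 184, 6552 and 9244 normalized counts in WT hosts against 37108, 55944 and 91.0 in knockout hosts. *Foxj1*, the regulator of motile cilia, reached 1135 and 1938 in *Tgm2* knockout tumors 1 and 2 and 20.8 to 228 in the others, and *Pax8*, of the oviduct epithelium, was highest in WT tumor 3 at 1905. The 8 oviduct genes summed to 40102 in *Tgm2* knockout tumor 1 and to 59523 in *Tgm2* knockout tumor 2, where the zona genes were at 0. Of the 8 genes 0 passed limma after adjustment (median log2 fold change 1.07, and 0.03 without *Tgm2* knockout tumor 1). The part of oviduct in the oocyte values was not tested.

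The cancer line is of ovarian surface epithelium, and the 3 most abundant of its epithelial and mesothelial genes were high in all tumors, while others such as *Epcam*, at 90.5 in WT tumor 1 and 8047 in WT tumor 3, varied widely. *Wt1* lay between 13131 and 20641 normalized counts, *Krt8* between 10373 and 21948 and *Krt19* between 11260 and 18236, and the 9 genes of the list summed to 72014, 83802 and 76397 in WT hosts against 63378, 60433 and 69893 in knockout hosts. All 3 knockout sums lay below all WT sums, with *Tgm2* knockout tumor 2 the lowest and *Tgm2* knockout tumor 1 next. Single genes with groups that did not overlap, in either direction, made up 10.5% of those tested. Of these 9 genes 0 passed limma after adjustment (median log2 fold change -0.40), with 6 negative and 3 positive log2 fold changes. The 10 leukocyte genes, led by *Laptm5*, *Lcp1* and *Cd52*, summed to 31814, 21158 and 17682 in WT hosts against 21940, 40385 and 42179 in knockout hosts, and 0 of 10 passed (median 0.53, and 0.82 without *Tgm2* knockout tumor 1).

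White adipocyte genes had yet another order of tumors. The 12 white adipocyte genes, led by *Lpl*, *Cfd* and *Scd1*, summed to 52547, 65897 and 38325 normalized counts in WT hosts against 57119, 210647 and 126457 in knockout hosts. *Tgm2* knockout tumor 1 was the lowest of its group in this sum and the highest in the oocyte sum. Their median log2 fold change was 1.80, and 2.31 without that tumor. Of the 12 genes, 10 were higher at the unadjusted limits, beside 2.5% of all genes tested. Only *Lep*, which encodes leptin, passed (log2 fold change 3.74, standard error 0.47, adjusted p = 0.0393 from limma), beside 0.102% of all genes tested. *Lep* stood at 43.5, 40.7 and 18.2 normalized counts in WT hosts against 334, 494 and 512 in knockout hosts. Without *Tgm2* knockout tumor 1 its log2 fold change was 3.94 (standard error 0.57), and with 5 tumors it did not pass (adjusted p = 0.0783). The difference between the lists was not tested.

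The receptors and mediators that GDF9, BMP15 and the egg membrane use were present in every tumor. *Bmpr1b*, a type I receptor for BMP15, stood at 95.9, 98.6 and 291 normalized counts in WT hosts against 974, 362 and 30.5 in knockout hosts, and was 1 of 3 among the 14 genes of this list that were highest in *Tgm2* knockout tumor 1, 0 of them by 8-fold. *Tgfbr1* lay between 3838 and 6295, *Furin*, a protease that processes TGF-β family precursors, between 3375 and 5475, and *Cd9*, the tetraspanin of the egg membrane that is common to many cells, between 7213 and 19067. Of the 14 genes of this list 0 passed limma after adjustment, with a median log2 fold change of 0.06. *Bmpr1b* was chosen for mention after its values were seen. The 7 genes that cumulus cells raise around ovulation, led by *Btc*, *Ptgs2* and *Tnfaip6*, also gave 0 that passed (median -0.44), and 0 of the 7 were highest in *Tgm2* knockout tumor 1. *Ptgs2* stood at 308 normalized counts there and at 325 to 787 in the other tumors.

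The genes with the pattern most like the summed oocyte level were sought among all genes tested outside the set, by the root mean square difference of the centred log2(value + 1) profiles over the 6 tumors. They were *Ighv1-81*, an immunoglobulin heavy chain variable gene (0.350), *Oog3* (0.351), *Obox2* (0.375), *Trim75* (0.414) and *Pramel51* (0.441). *Oog3* stood at 3.79, 0 and 2.03 normalized counts in WT hosts against 89.1, 0 and 0 in knockout hosts, and *Ighv1-81* at 302, 52.0 and 80.9 in WT hosts against 2319, 26.4 and 68.3 in knockout hosts. The likeness is a description over 6 points that turns on *Tgm2* knockout tumor 1.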

How the data were processed

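PolyA RNA-seq of 3 WT and 3 *Tgm2* knockout tumors was used. From paired 100-nucleotide reads the authors estimated transcript abundance with kallisto (version 0.46.2, build GRCm38, per the submitters' processing notes), mapped transcripts to genes with biomaRt, dropped low genes at a limit not given in the sources used here, and applied the size factors of DESeq2. The deposited values are labelled TPM but were treated as a signal (normalized counts), since columns sum to between 32316613 and 37717165, and are not whole, so no count model was used.

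The members, gene lists, tests and alternatives were chosen with earlier results of these data known. A pseudocount of 1 was added, genes with at least 1 in at least 3 tumors were kept (19667 of 20076), and limma 3.58.1 in R 4.3.3 fitted genotype with a variance trend, no covariate and Benjamini-Hochberg adjustment, two-sided. The fit was tested on simulated data. Exact permutation tests, sums and motif searches used Python 3.11.15. The value of 1 read in each tumor came from the steps of genes with a single transcript, and a floor of 3 reads was used for values of 0. Positions come from GENCODE M21, and promoter windows from RefSeq on GRCm38.p6. The genes named were the set, the 3 most abundant genes of each other list with any past the limits, compartment markers (*Amh*, *Fshr*, *Foxl2*, *Inha*, *Cyp19a1*, *Cyp17a1*, *Cyp11a1*, *Star*, *Lhcgr*), further oocyte genes with a mean of at least 10 and the 5 genes of most like pattern. Other genes were named after their values were seen. The alternatives changed the pseudocount, filter, scaling, variance trend, replicate block, thresholds and detection limit, and left out each tumor in turn.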

Additional observations from a re-analysis of the deposited data

How the results depend on the processing

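The count of 0 oocyte genes past the limits held in every alternative run. For all genes, the 20 higher genes became 4 without the variance trend, 5 with the replicate block, 491 at the unadjusted limits and between 2 and 14 where a tumor was left out, with 7 without WT tumor 1, 2 without WT tumor 2, and 11 without *Tgm2* knockout tumor 1 or 2, and the 0 lower genes became 305 at the unadjusted limits and at most 1 where a tumor was left out. The summed oocyte level, a log2 ratio of 3.04, ranged from -1.35 without *Tgm2* knockout tumor 1 to 3.61 without WT tumor 1, and was 3.09 per kilobase. Where a tumor was left out, log2 fold changes ranged from 0.15 (without WT tumor 2) to 2.66 (without *Tgm2* knockout tumor 2 or 3) for *Zp2*, from 0.06 (without *Tgm2* knockout tumor 1) to 2.15 (without *Tgm2* knockout tumor 2) for *Bmp15*, from -0.46 to 2.01 for *Zp3*, from -1.04 to 1.53 for *Gdf9*, from -3.56 to 0.71 for *Nlrp5*, from -1.86 to 0.55 for *Ooep* and from -1.68 to 1.05 for *Padi6*. For *Zp2*, *Zp3* and *Padi6* these ranges cover only WT tumor 2 and *Tgm2* knockout tumors 2 and 3 left out. These genes were not tested where another tumor was left out. With a pseudocount of 0.1, *Zp2* was at 0.17, *Nlrp5* at -2.79, *Ooep* at -0.42 and *Padi6* at -2.05. Single log2 fold changes that turned, none of which passed adjustment, were those of *Zp3* (-0.36 with a pseudocount of 0.1, -0.46 without WT tumor 2), *Gdf9* (-1.04 without *Tgm2* knockout tumor 1), *Nlrp5* (0.37 with a pseudocount of 5, 0.71 without *Tgm2* knockout tumor 2 or 3), *Ooep* (0.043 with a pseudocount of 5, 0.55 and 0.49 without *Tgm2* knockout tumor 2 and 3) and *Padi6* (0.36 with a pseudocount of 5, 1.05 without *Tgm2* knockout tumor 2 or 3). These 12 turned of 87 values, the lowest adjusted p among them all was 0.453, and the cause was not tested. The values of the oocyte genes in tumors other than *Tgm2* knockout tumor 1 rest on few reads. The labels do not say whether the replicate numbers pair the tumors. Deviations of same-numbered tumors from their group means correlated at -0.20, 0.28 and -0.31 across genes. These values cannot decide it, since the deviations within a group of 3 are tied to each other. No oocyte gene passed with the replicate block.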

Other observations

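The 155 genes at least 8-fold above every other tumor in *Tgm2* knockout tumor 1 include several families known from the egg and early embryo, and the counts include listed genes such as *Nlrp5*, *Nlrp14*, *Tcl1*, *Omt2a* and *Omt2b*. They hold 4 of the 4 *Tcl1* family genes in the table, 3 of 4 *Oog* genes, 3 of 5 *Obox* genes, 2 of 2 *Omt2* genes, 7 of 20 *Nlrp* genes, 8 of 21 *Pramel* genes and 7 of 22 *Fbxw* genes, and 18 of 195 immunoglobulin genes. Beside these counts stand 155 of all 20076 genes in the table, which is 0.838% of the 18496 with a highest value of at least 10. The families were counted by symbol after the values were seen, many members are near-identical copies whose reads can be shared between them, and no test was made.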
